A study of Mus musculus with 11 samples.

Results

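RNA polymerases I, II and III are enzymes of many subunits, and 27 genes for these subunits were followed here among the 55414 genes measured in mouse OT-I CD8+ T cells. The genes were chosen by symbol alone, as protein-coding genes named Polr1, Polr2 or Polr3 followed by letters, with Polr2m and pseudogenes left out. Of the 27, 3 code for subunits of polymerase I only, 7 for subunits of polymerase II only, 10 for subunits of polymerase III only, and 7 for subunits that are shared. The shared genes were Polr1c and Polr1d, whose proteins sit in polymerases I and III, and Polr2e, Polr2f, Polr2h, Polr2k and Polr2l, whose proteins sit in all these enzymes. The 3 polymerase I subunit genes Twistnb, Cd3eap and Znrd1, now also called Polr1f, Polr1g and Polr1h, stood under their older symbols and are given separately. Every one of the 27 genes passed the filter on low counts.

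OT-I cells carry a transgenic T cell receptor that recognises an ovalbumin peptide, and all libraries shared this genotype. The Torin libraries (n = 3, numbers 1, 3 and 4) came from cells given Torin and N4, the stimulated libraries (n = 4) from cells given DMSO and N4, and the naive libraries (n = 4) from cells left without treatment, each at 12 h. N4 is the name of the peptide that stimulates these cells, DMSO is the solvent, and Torin inhibits the kinase mTOR. No library held Torin without N4, so the action of Torin on resting cells is not covered. The labels do not say whether libraries of 1 group came from separate animals, so the p-values measure the spread between these libraries, which may be technical in part.

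Polymerase I transcribes the large ribosomal RNA precursor, polymerase II makes messenger RNAs, and polymerase III makes transfer RNAs, 5S ribosomal RNA and other small RNAs. Each enzyme has its own pair of large catalytic subunits and a set of smaller ones, and the shared subunits lie around the core. Resting T cells are small and make little ribosome, and they grow before they divide after antigen. mTOR is known to control polymerase I through its initiation factor Rrn3 and polymerase III through the repressor Maf1. These controls act mainly on proteins, whereas the values here are messenger RNA levels, so they hold no measure of polymerase activity.

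The tables hold estimated counts, with library totals that differed by a ratio of 1.68 between the highest and the lowest. Levels per gene are given in CPM, counts scaled to library size, after TMM scaling, which corrects totals for composition. The scaling factors lay between 0.939 and 0.976 in Torin, between 0.727 and 0.963 in stimulated and between 1.13 and 1.35 in naive libraries, with stimulated 3 the lowest. Markers of CD8 T cells were present in all libraries, at summed levels of 3927 to 4138 CPM in Torin, 2119 to 2912 CPM in stimulated and 4979 to 6206 CPM in naive libraries. Some libraries also held RNA of other cells. B cell markers summed to 13243 CPM in Torin 4, 14392 CPM in stimulated 4 and 47394 CPM in naive 4. Elsewhere they summed to 222 to 366 CPM in naive and 38.5 to 117 CPM in Torin and stimulated libraries. Granulocyte markers summed to 2063 CPM in stimulated 2 and 8455 CPM in naive 2. Elsewhere they summed to 108 to 149 CPM in naive and 16.0 to 50.2 CPM in Torin and stimulated libraries. Monocyte and macrophage markers summed to 1989.5 CPM in naive 2 and 107 to 190 CPM in the other naive libraries. In Torin and stimulated libraries they summed to 6.03 to 75.0 CPM. Results that depend on the libraries of number 2 or 4 are therefore given below without them as well. Leaving them out does not remove the higher sums of these 3 marker sets in naive libraries. In bulk RNA, a change in the share of cells that express a gene and a change in RNA per cell cannot be told apart.

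Stimulated cells were compared with naive cells to ask how the polymerase subunit genes differ 12 h after antigen. Of the 27 genes, 19 rose and 3 fell (edgeR quasi-likelihood test, Benjamini-Hochberg adjusted p under 0.05 over all genes tested). Across the 22238 genes tested, 19.2% were called higher and 20.2% lower, and 39.5% were called in either direction. All 3 polymerase I genes of the symbol rule and all shared genes rose. Of the polymerase II genes 4 of 7 rose and 1 fell, and of the polymerase III genes 5 of 10 rose and 2 fell. The median log2 change was 2.34 for polymerase I, 2.09 for the shared genes, 0.73 for polymerase III and 0.63 for polymerase II, beside -0.22 for all genes tested. Stimulated and naive libraries did not overlap for 20 genes that lay above and 3 that lay below, where 19.8% and 21.7% of all genes tested did so. When libraries were scaled by their totals alone, the median of all genes moved to -0.71, 28.5% of calls over all genes were higher against 48.7% with TMM, and 15 of the 27 genes were called higher and 4 lower, with 41.1% of all genes called. In that scaling the calls for Polr2b, Polr2d, Polr2e and Polr3e were lost (log2 changes 0.14, 0.14, 0.37 and 0.57) and Polr3f was called lower (-1.15). Without the libraries of number 4, 20 genes were called higher and 1 lower, where 30.9% of all genes tested were called, and without those of number 2, 19 and 3, where 34.3% were. Transcript length moved with the changes of all genes in this comparison. Their median was 0.26 for transcripts under 1000 nt, -0.21 from 1000 to 2000 nt, -0.39 from 2000 to 4000 nt and -0.56 at 4000 nt or longer, where the subunit genes had 1.11, 1.18, 1.70 and 0.51. Among genes with a mean of at least 5 CPM the medians of all genes were 0.67, 0.12, -0.07 and -0.31. The part of length in the changes of the subunit genes was not tested.

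**Figure D1:**
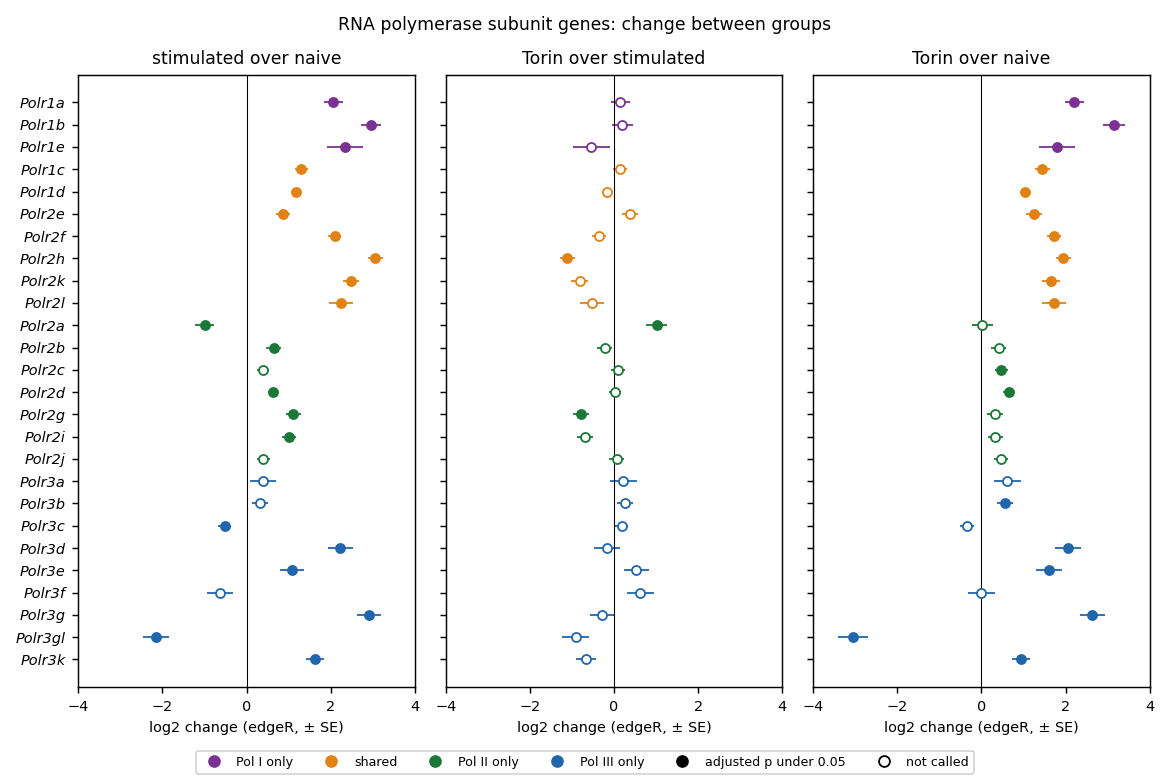
Log2 change of the subunit genes reported singly (rows, grouped by enzyme) with its standard error, in stimulated over naive, Torin over stimulated and Torin over naive libraries (panels). Filled points pass the adjusted p threshold of 0.05. Polr2h lies highest in the first panel at 3.06, and the points of the second panel lie between -1.11 and 1.01.

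All 3 polymerase I genes rose, with changes of 2.06 to 2.95 on the log2 scale. Polr1b, the second-largest subunit and part of the catalytic centre, stood at 10.6, 14.7, 18.5 and 12.9 CPM in stimulated libraries 1 to 4 and at 2.05, 1.35, 2.37 and 1.57 CPM in naive libraries 1 to 4. Its log2 change was 2.95 (SE 0.24, adjusted p 1.05e-05 by edgeR). The largest subunit, Polr1a, averaged 12.8 ± 2.0 CPM in stimulated and 3.06 ± 0.84 CPM in naive libraries (SD, n = 4 each), a log2 change of 2.06 (SE 0.22). Neither gene overlapped between the groups. Polr1e, whose protein pairs with that of Cd3eap to help initiation and elongation, was more variable, with 47.1, 20.3, 27.1 and 40.0 CPM in stimulated and 11, 8.12, 4.59 and 2.85 CPM in naive libraries. The groups still did not overlap and its log2 change was 2.34 (SE 0.42, adjusted p 0.00107 by edgeR). Of the genes under older symbols, Cd3eap rose by 2.25 and Twistnb, a stalk subunit, by 0.89 on the log2 scale. Znrd1, a small subunit that acts in RNA cleavage, had a log2 change of -0.14 (adjusted p 0.77 by edgeR), with 90.8 to 247 CPM in stimulated and 104 to 181 CPM in naive libraries.

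Among the shared genes, Polr2h showed the largest change of all 27 genes. It stood at 720.4, 621, 732 and 689.6 CPM in stimulated libraries and at 98.3, 96.7, 68.0 and 68.6 CPM in naive libraries. The lowest stimulated library was thus far above the highest naive one, and the log2 change was 3.06 (SE 0.18, adjusted p 6.09e-06 by edgeR). The other small subunits of all enzymes, Polr2k, Polr2l and Polr2f, rose by 2.48, 2.25 and 2.09 on the log2 scale. Polr2l is a zinc-binding subunit at the assembly platform, and it stood at 712, 932, 1744 and 909 CPM in stimulated and 169.6, 294, 227 and 211 CPM in naive libraries. Stimulated 3, the library with the lowest scaling factor, was the highest stimulated library for Polr2l, Polr2f, Polr2h, Polr2k, Polr2g, Polr2i, Polr2j and Polr3k. The same held for Polr1b, Polr1c, Polr1d, Polr2a, Polr2d, Polr3a and Polr3g. Polr2e, which contacts the DNA entering the enzyme, had the smallest change of the shared genes, with 236 ± 29.2 CPM in stimulated and 129 ± 28.5 CPM in naive libraries (SD, n = 4 each) and a log2 change of 0.87 (SE 0.17). Polr1c and Polr1d form the pair on which polymerases I and III assemble. They rose by 1.3 (SE 0.16) and 1.18 (SE 0.12) on the log2 scale, without overlap between the groups.

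The polymerase II genes did not share 1 direction. Polr2a codes for the largest subunit of the enzyme, which carries the repeated C-terminal tail that is phosphorylated during transcription. It stood at 8.69, 11.2, 17.9 and 11.8 CPM in stimulated libraries and at 19.4, 23.1, 30.2 and 26.1 CPM in naive libraries. Every stimulated library was below every naive one, and Polr2a fell by 1.0 on the log2 scale (SE 0.23, adjusted p 0.00541 by edgeR). Without the libraries of number 4, which held the most B cell markers, its change was -0.84 and missed the threshold (adjusted p 0.0652 by edgeR). Polr2a is in the longest class of transcripts, where the median of all genes was -0.56. Polr2b, the second catalytic subunit, went the other way, with 12.5 ± 2.30 CPM in stimulated and 8.08 ± 0.61 CPM in naive libraries (SD, n = 4 each) and a log2 change of 0.64 (adjusted p 0.0106 by edgeR).

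The smaller polymerase II genes had modest changes. Polr2g and Polr2d code for the stalk, a pair of subunits that binds the emerging RNA. Polr2g stood at 523, 612, 857 and 502 CPM in stimulated and 249.9, 340.0, 287 and 277 CPM in naive libraries, a log2 change of 1.11 (SE 0.18, adjusted p 0.000523 by edgeR). Polr2d rose by 0.63 (adjusted p 0.00279 by edgeR), with 67.4 to 98.3 CPM in stimulated and 54.3 to 58.7 CPM in naive libraries. Polr2i, a small subunit linked to fidelity, rose by 1.01, but 26.8% of its annotated exon length overlaps Tbcb on the opposite strand. Polr2c and Polr2j, the assembly pair of this enzyme, had log2 changes of 0.39 and 0.40 with adjusted p of 0.0645 and 0.0666 by edgeR. With the library number as a block both passed, at 0.39 and 0.39 (adjusted p 0.0303 and 0.0361 by edgeR), and with totals alone both were negative, at -0.11 and -0.10. Polr2c also passed without Torin 4, stimulated 3, stimulated 4 or naive 1, at 0.45 to 0.48, and Polr2j without Torin 4, at 0.49. The overlap with opposite-strand genes was 18.1% of exon length for Polr2c and 15.9% for Polr2j, and since the counting is not stated to use strand, the reads of such pairs cannot be told apart. The overlaps of Polr1a, Polr2b, Polr2f, Polr2h, Polr3b and Polr3gl with opposite-strand genes covered 1.56% to 9.44% of their exon length.

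The polymerase III genes split. The catalytic subunits Polr3a and Polr3b did not pass, with log2 changes of 0.39 (adjusted p 0.343 by edgeR) and 0.32 (adjusted p 0.186 by edgeR), and both were negative with totals alone, at -0.16 and -0.15. Polr3d and Polr3e form a pair that acts in initiation and termination. Polr3d stood at 40.2, 28.7, 26.6 and 37.1 CPM in stimulated and 10.9, 7.60, 5.99 and 3.78 CPM in naive libraries, a log2 change of 2.23 (SE 0.30, adjusted p 0.000163 by edgeR). Polr3e rose by 1.08 (adjusted p 0.0115 by edgeR). Polr3k, a small subunit that acts in termination, rose by 1.62. Crcp, a stalk subunit that the symbol rule leaves out, had a log2 change of 0.12 (adjusted p 0.706 by edgeR).

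The remaining polymerase III genes, Polr3c, Polr3f and the paralogs Polr3g and Polr3gl, code for a subcomplex that opens the promoter. Polr3c stood at 9.95, 13.8, 12.0 and 9.13 CPM in stimulated and 15.9, 15, 15.5 and 17.8 CPM in naive libraries, a log2 change of -0.52 (adjusted p 0.0194 by edgeR). This call was lost without Torin 4, stimulated 3 or stimulated 4 (-0.47 to -0.43, adjusted p 0.0513 to 0.0634 by edgeR), and without the libraries of number 4 together it was -0.28. Polr3f had a log2 change of -0.63 (adjusted p 0.113 by edgeR), with 1.3 to 2.86 CPM in stimulated and 2.73 to 3.75 CPM in naive libraries.

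Polr3g and Polr3gl code for alternative versions of the same subunit, so that a polymerase III particle holds either protein. Their messenger RNAs moved in opposite directions. Polr3g stood at 24.9, 29.3, 49.7 and 24.3 CPM in stimulated and 5.90, 3.51, 4.42 and 3.20 CPM in naive libraries, a log2 change of 2.91 (SE 0.29, adjusted p 2.78e-05 by edgeR). Polr3gl stood at 7.41, 4.92, 2.97 and 6.48 CPM in stimulated and 17.7, 23.2, 22.6 and 33.7 CPM in naive libraries, a log2 change of -2.16 (SE 0.31, adjusted p 0.000226 by edgeR). Neither gene overlapped between stimulated and naive libraries.

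Set per transcript length, Polr3g made up 82.2%, 91.7%, 97.0% and 86.5% of the pair in stimulated libraries 1 to 4 and 24.6%, 14.9%, 18.6% and 10.9% in naive libraries 1 to 4. The mean share was 89.3 ± 6.42% in stimulated and 17.3 ± 5.82% in naive libraries (SD, n = 4 each). The difference was 72.1 percentage points (two-sided exact permutation test, p 0.0286, the smallest that 4 against 4 can give). The library numbers were taken to pair these groups, and with labels exchanged within the 4 pairs only, a choice made after seeing the data, the exact permutation p was 0.125, the smallest that 4 pairs can give. The share was higher in the stimulated library of all 4 pairs. The sum of the pair was 33.4, 35.4, 45.1 and 28.4 TPM in stimulated and 30.0, 25.6, 27.5 and 30.0 TPM in naive libraries, where TPM are counts divided by transcript length and scaled to the same sum in each library. The sums of the groups overlapped in range, while their composition did not. A part of the Polr3g counts came from a short non-coding transcript of 424 nt, Polr3g-203. Counting protein-coding transcripts only, chosen after seeing the data, the mean share was 75.4 ± 11% in stimulated and 9.76 ± 5.16% in naive libraries, a difference of 65.6 points (exact permutation p 0.0286, without pairing).

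**Figure D2:**
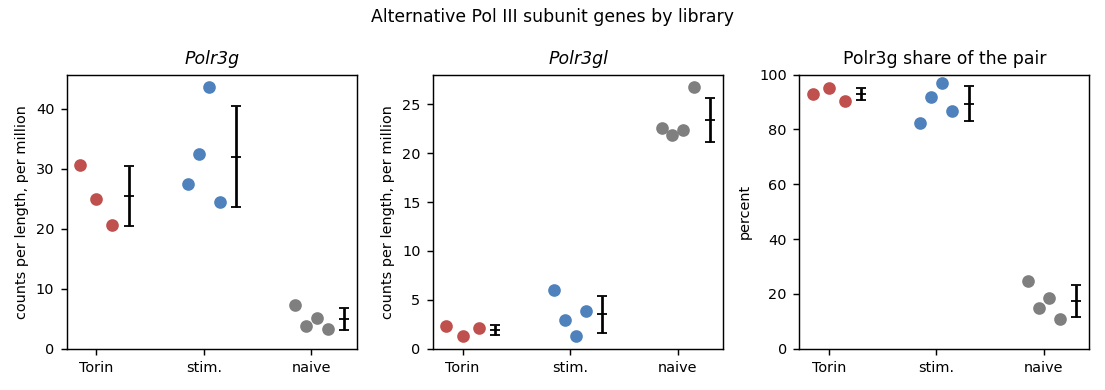
Levels of Polr3g and Polr3gl per library in TPM, and the share of Polr3g in the pair in percent, for Torin, stimulated (stim.) and naive libraries. Each point is a library, bars give the group mean with its SD, and the level axes are in counts per length (TPM). The shares lie between 90.5% and 95.1% in Torin, between 82.2% and 97.0% in stimulated and between 10.9% and 24.6% in naive libraries.

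Polr3g and Polr3gl, which moved apart, and Polr2a, which fell while the other polymerase II genes that passed rose, have the following 250 bases before their start sites. The sequences are from RefSeq on build GRCm38.p6, where Polr3g lies at chr13:81711014-81711263, Polr3gl at chr3:96594182-96594431 and Polr2a at chr11:69758634-69758883, each on the minus strand. Capitals mark matches to the motifs searched, on either strand.
Polr3g: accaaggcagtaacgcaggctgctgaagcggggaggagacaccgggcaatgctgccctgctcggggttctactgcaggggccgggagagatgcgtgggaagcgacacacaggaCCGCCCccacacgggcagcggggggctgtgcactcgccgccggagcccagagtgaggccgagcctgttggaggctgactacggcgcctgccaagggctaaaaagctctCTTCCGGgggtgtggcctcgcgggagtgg
Polr3gl: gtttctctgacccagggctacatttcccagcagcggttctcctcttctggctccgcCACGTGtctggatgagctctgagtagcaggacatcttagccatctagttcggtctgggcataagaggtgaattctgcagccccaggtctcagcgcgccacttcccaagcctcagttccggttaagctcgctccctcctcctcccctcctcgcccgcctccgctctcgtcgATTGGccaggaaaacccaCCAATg
Polr2a: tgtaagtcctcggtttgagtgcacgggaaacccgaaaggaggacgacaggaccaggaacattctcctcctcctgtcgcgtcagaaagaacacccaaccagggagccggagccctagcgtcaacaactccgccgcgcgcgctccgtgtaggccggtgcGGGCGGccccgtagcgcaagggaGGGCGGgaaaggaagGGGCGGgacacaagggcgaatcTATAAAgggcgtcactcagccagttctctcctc
The motifs were the E-box with the letters CACGTG, the TATA box with the letters TATAAA, the CCAAT box with those letters, the ETS motif spelled CCGGAAG, the YY1 motif spelled AAGATGG and the GC box spelled GGGCGG. No matches overlapped in these sequences. Polr3g held an ETS motif at -29 to -23 from the start and a GC box at -137 to -132, both on the opposite strand, and no CCAAT or E-box match. Polr3gl held an E-box at -194 to -189 and CCAAT boxes at -24 to -20 and -6 to -2, and no GC box or ETS match. Polr2a held a TATA box at -33 to -28 and 3 GC boxes that start at -93, -70 and -55. Of the 21 subunit genes with an entry, 13 held a GC box, 6 a CCAAT box, 5 an ETS motif, 2 an E-box and 2 a TATA box, and none held the YY1 motif. Across 32851 promoters of the table the shares were 32.7% for the GC box, 33.8% for the CCAAT box, 6.9% for the ETS motif, 6.0% for the E-box, 12.4% for the TATA box and 4.5% for YY1. These matches describe the letters of the window only. The 5 genes with the ETS motif were Polr1c, Polr2f, Polr2j, Polr3b and Polr3g, and the other gene with an E-box was Polr3c.

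Torin libraries were compared with stimulated libraries to ask how the same genes differ when mTOR is inhibited during stimulation. Of the 27 genes, 1 rose (Polr2a) and 2 fell (Polr2h and Polr2g), and 24 did not pass. Across the 22238 genes tested, 2.32% were called higher, 2.3% lower and 4.62% in either direction. The median log2 change of the 27 genes was 0.02, beside -0.02 for all genes tested. By class it was 0.15 for polymerase I, 0.02 for polymerase II, 0.10 for polymerase III and -0.36 for the shared genes. Torin and stimulated libraries did not overlap for 2 genes that lay above and 5 that lay below, where 9.56% and 10.1% of all genes tested did so. Without the libraries of number 4 none of the 27 genes (0) was called by edgeR in either direction, 7 had an unadjusted p under 0.05, and 0.246% of all genes tested were called. Without the libraries of number 2 only Polr2h was called, and 1.57% of all genes tested were. The 2 genes above were Polr2a and Polr1c, and the 5 below were Polr2f, Polr2g, Polr2h, Polr2i and Polr2k.

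Polr2h fell the most. It stood at 379.6, 288 and 290.3 CPM in Torin libraries 1, 3 and 4 and at 720.4, 621, 732 and 689.6 CPM in stimulated libraries 1 to 4. Each Torin library was far below each stimulated one, and above every naive one. The log2 change was -1.11 (SE 0.18, adjusted p 0.0109 by edgeR), and it missed the threshold only when Torin 3 was left out (-1.04, adjusted p 0.07 by edgeR) or the libraries of number 4 (-1.03, adjusted p 0.106 by edgeR). By DESeq2 its adjusted p was 5e-08.

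Polr2a stood at 24.4, 29.7 and 21 CPM in Torin and 8.69, 11.2, 17.9 and 11.8 CPM in stimulated libraries. All Torin libraries were above all stimulated ones and lay within the range of the naive ones, 19.4 to 30.2 CPM. The log2 change was 1.01 (SE 0.25, adjusted p 0.0434 by edgeR). The call was lost in 9 of 11 fits that each left out a library, all but those without stimulated 3 or naive 1, with log2 changes of 0.87 to 1.14 and adjusted p of 0.0526 to 0.193 by edgeR. Polr2g stood at 382, 341 and 367 CPM in Torin and 523, 612, 857 and 502 CPM in stimulated libraries, a log2 change of -0.78 (SE 0.19, adjusted p 0.0474 by edgeR). Its call was lost without Torin 1, 3 or 4, stimulated 2 or 4, or naive 2, 3 or 4 (-0.87 to -0.74, adjusted p 0.0518 to 0.198 by edgeR). The library number as a block left Polr2a called at 1.02 (adjusted p 0.023 by edgeR), left Polr2g at -0.71 (adjusted p 0.0836 by edgeR) and added Polr2i at -0.67 (adjusted p 0.0461 by edgeR).

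Some of the short subunit genes lay close to the threshold on the same side. Polr2k, a small zinc-binding subunit of all enzymes, stood at 287, 249 and 308 CPM in Torin and 372, 519.9, 693 and 406 CPM in stimulated libraries, a log2 change of -0.82 (SE 0.21, adjusted p 0.0522 by edgeR). It passed when stimulated 1 or stimulated 3 was left out (-0.94 and -0.66, adjusted p 0.0326 to 0.0462 by edgeR). Polr2i had a log2 change of -0.69 (adjusted p 0.0584 by edgeR) and passed without stimulated 1 or naive 1 (-0.78 and -0.69, adjusted p 0.0437 to 0.0469 by edgeR). Transcript length moved with these values. The 7 subunit genes with transcripts under 1000 nt had a median log2 change of -0.69, beside -0.09 for the 5720 genes tested of that length, and the 6 of 4000 nt or longer had 0.23, beside 0.12 for 3927 genes. Polr2h and Polr2g are in the shortest class and Polr2a in the longest, and the part of length in their changes was not tested.

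**Figure D3:**
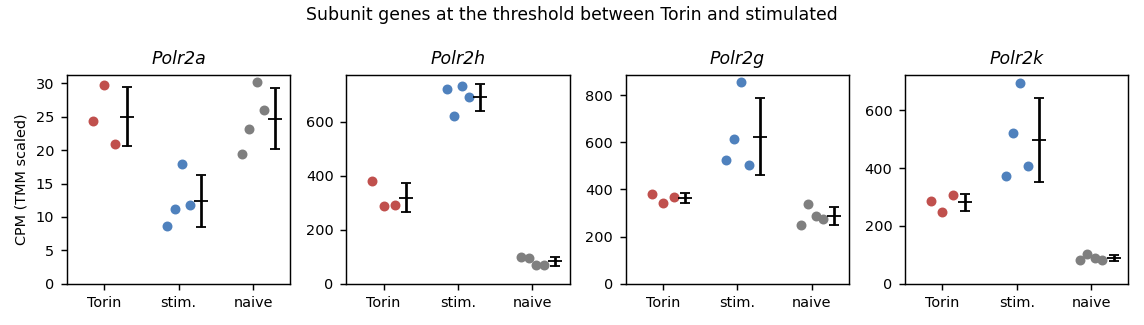
TMM-scaled CPM of Polr2a, Polr2h, Polr2g and Polr2k in each Torin, stimulated (stim.) and naive library. Points are libraries and bars give the group mean with its SD. Polr2a lies at 21 to 29.7 CPM in Torin and 8.69 to 17.9 CPM in stimulated libraries, and Polr2h at 288 to 379.6 CPM in Torin and 621 to 732 CPM in stimulated libraries.

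No polymerase I or polymerase III gene passed by edgeR between Torin and stimulated libraries. At an unadjusted p under 0.05 there were 0 of 3 and 2 of 10, and by DESeq2 0 of 3 and 2 of 10 passed. Polr1a stood at 14.6, 14.5 and 13.4 CPM in Torin and 14.6, 11.9, 14.2 and 10.4 CPM in stimulated libraries, a log2 change of 0.15 (SE 0.22, adjusted p 0.794 by edgeR). Polr1b and Polr1e had log2 changes of 0.20 (SE 0.24) and -0.54 (SE 0.44), with overlapping groups. Under older symbols, Twistnb, Cd3eap and Znrd1 had log2 changes of 0.24, -0.43 and -0.09, and none passed by edgeR. Within polymerase III the values lay between -0.91 for Polr3gl and 0.62 for Polr3f. Polr3gl stood at 3.34, 2.18 and 3.21 CPM in Torin and 7.41, 4.92, 2.97 and 6.48 CPM in stimulated libraries (SE 0.32, adjusted p 0.148 by edgeR), so that only stimulated 3 reached into the Torin range. The log2 change of Polr3g was -0.29 (SE 0.29, adjusted p 0.669 by edgeR). The share of Polr3g in the pair was 93.1%, 95.1% and 90.5% in Torin libraries, a mean of 92.9 ± 2.32% (SD, n = 3) against 89.3 ± 6.42% in stimulated libraries (SD, n = 4). The difference was 3.58 points (two-sided exact permutation test, p 0.457, where 3 against 4 cannot go below 0.0571). By DESeq2, 1 gene was called higher and 6 were called lower, which were Polr2h, Polr2g, Polr2k, Polr2i, Polr3k at -0.70 (adjusted p 0.0309) and Polr3gl at -0.94 (adjusted p 0.0467). That test called 12.3% of all genes. With totals alone the median of all genes moved to 0.11, 67.6% of calls over all genes were higher against 50.1% with TMM, and 1 of the 27 genes was called higher and 3 lower, with Polr2k added at -0.64 and 4.78% of all genes called.

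Torin libraries were also set against naive libraries, which shows what separated stimulated cells under Torin from resting ones. Of the 27 genes, 18 were higher and 1 was lower (Polr3gl), where 16.4% of all genes tested were called higher, 15.8% lower and 32.2% in either direction. Each pair of these comparisons shares the libraries of a group, so their values are given side by side only. All 3 polymerase I genes of the symbol rule (median log2 change 2.21) and all shared genes (1.66) were higher. So were 6 of 10 polymerase III genes (0.78) and 2 of 7 polymerase II genes (0.41), beside a median of -0.18 for all genes tested. Under older symbols, Cd3eap and Twistnb were higher by 1.81 and 1.14, and Znrd1 stood at -0.23 (adjusted p 0.668 by edgeR). Torin and naive libraries did not overlap for 21 genes above and 2 below, where 21.1% and 22.4% of all genes tested did so. With totals alone the median of all genes moved to -0.52, 33.4% of calls over all genes were higher against 50.9% with TMM, and 15 of the 27 genes were called higher and 2 lower, with 30.7% of all genes called. Without the libraries of number 4, 18 were called higher and 1 lower, where 23.6% of all genes tested were called, and without those of number 2, 16 and 1, where 29.2% were. From the shortest to the longest of the same classes of transcript length, the median of all genes was 0.30, -0.19, -0.32 and -0.41, and that of the subunit genes 0.66, 1.25, 1.73 and 0.59.

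Polr1b stood at 14.4, 18.9 and 15.6 CPM in Torin and 2.05, 1.35, 2.37 and 1.57 CPM in naive libraries, with the largest change of the 27 at 3.15 (SE 0.25, adjusted p 3e-05 by edgeR). Polr2h was 319 ± 52.4 CPM in Torin (SD, n = 3) and 82.9 ± 16.9 CPM in naive libraries (SD, n = 4), a log2 change of 1.94 (SE 0.18). Polr2a was 25.0 ± 4.40 CPM in Torin (SD, n = 3) and 24.7 ± 4.60 CPM in naive libraries (SD, n = 4), and its log2 change of 0.02 (SE 0.25, adjusted p 0.969 by edgeR) was within the spread of either group. Polr3gl was 2.91 ± 0.64 CPM in Torin (SD, n = 3) and 24.3 ± 6.73 CPM in naive libraries (SD, n = 4), a log2 change of -3.06 (SE 0.36, adjusted p 0.00013 by edgeR). Polr3g was higher by 2.63 (SE 0.30, adjusted p 0.000118 by edgeR), and its share of the pair differed by 75.7 points (two-sided exact permutation test, p 0.0571, the smallest that 3 against 4 can give). Polr2c and Polr3b passed narrowly, at 0.47 (adjusted p 0.0451 by edgeR) and 0.57 (adjusted p 0.044 by edgeR). Each was lost in 7 of 11 fits that left out a library, at 0.36 to 0.51 for Polr2c and 0.48 to 0.58 for Polr3b. Polr2c was lost without Torin 1 or 3, stimulated 1 or 2, or naive 2, 3 or 4, and Polr3b without Torin 1 or 3, stimulated 2 or 4, or naive 1, 2 or 3. Polr2j, at 0.46 (adjusted p 0.0602 by edgeR), passed without Torin 4 or stimulated 3, at 0.50 to 0.61.

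Levels between genes were compared per transcript length within each group. These TPM carry no TMM scaling, so differences between groups in them can depart from the log2 changes above. Polr2b, called higher in stimulated than in naive libraries, was level between these groups in TPM. The median of the polymerase III genes was lower in stimulated than in naive libraries in TPM, while their median log2 change was positive. Polr2f, a small subunit of all enzymes, was the highest in Torin libraries (883 ± 61.0 TPM, SD, n = 3) and in stimulated libraries (981 ± 47.3 TPM, SD, n = 4). In naive libraries Polr2j led at 492 ± 75.8 TPM, with Polr2g at 368 ± 57.9 and Polr2f at 360.2 ± 50.9 TPM (SD, n = 4), and these neighbours Polr2g and Polr2f differed by less than their spread. The order after Polr2f was Polr2j, Polr2k and Polr2l in Torin libraries and Polr2k, Polr2h and Polr2g in stimulated libraries. This order depended on the length used. With all annotated exons of a gene as its length, Polr2l at 605 TPM and Polr2k at 604 TPM were nearly level at the top in Torin libraries. Polr2k led in stimulated libraries at 922 TPM. Polr2f then stood at 455 and 505 TPM in these groups, and Polr2j still led in naive libraries at 465 TPM. The catalytic subunits lay far lower. Polr2a had 3.07 ± 0.51, 1.3 ± 0.18 and 4.08 ± 0.69 TPM in Torin, stimulated and naive libraries, and Polr2b had 2.16 ± 0.29, 2.21 ± 0.38 and 2.22 ± 0.40 TPM (SD, n = 3, 4 and 4). The lowest level was that of Polr3f in Torin (0.903 TPM) and stimulated libraries (0.473 TPM) and of Polr1b in naive libraries (0.540 TPM). Of the 27 genes, 9 reached 100 TPM in each group, and 10, 10 and 11 stayed under 5 TPM in Torin, stimulated and naive libraries. With all annotated exons as length, 10, 10 and 8 reached 100 TPM in these groups. By class the median level in Torin, stimulated and naive libraries was 370.3, 533 and 150.3 TPM for the subunits of all enzymes, and 75.1, 66.1 and 65.4 TPM for those of polymerase II only. It was 3.89, 3.49 and 4.61 TPM for polymerase III only and 3.38, 2.56 and 0.583 TPM for polymerase I only. Genes with longer transcripts had lower levels (Spearman rho -0.86, -0.89 and -0.90 in Torin, stimulated and naive libraries), a description of genes that share libraries and a poly(A) kit whose coverage along transcripts was not examined. Since TPM are themselves counts divided by transcript length, part of a negative rho can be built in.

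**Figure D4:**
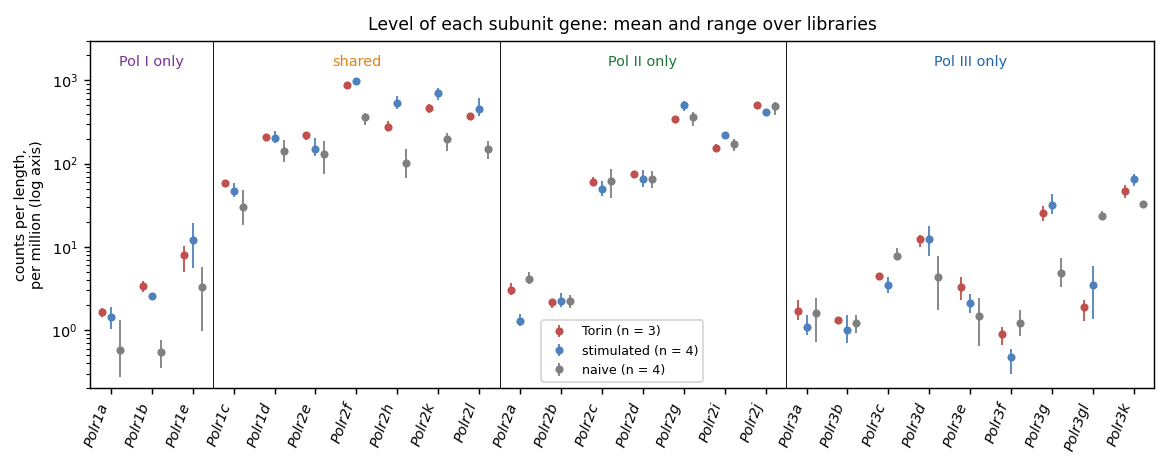
Level of the subunit genes reported singly per transcript length (TPM, log axis) in Torin, stimulated and naive libraries, as group means with the range over libraries, grouped by enzyme. The small subunits of all enzymes reach up to 981 TPM, while the catalytic subunits Polr1a, Polr1b, Polr2a, Polr2b, Polr3a and Polr3b lie between 0.540 and 4.08 TPM.

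The transcript table showed how these counts were divided within genes. For Polr2a, Polr1b and Polr2l nearly all counts, at least 99.0% in each library, were on a single coding transcript. For Polr3g, the full-length coding transcript Polr3g-201 (3054 nt) held 42.2%, 49.3% and 49.5% of counts in Torin, 39.6%, 32.8%, 28.6% and 39.1% in stimulated, and 60.6%, 51.5%, 53.9% and 52.3% in naive libraries. The stimulated libraries were the lowest and the naive ones the highest, without overlap. For Polr1d, Polr1d-201 (1196 nt) held 75.3% to 79.1% in stimulated and 65.8% to 72.3% in naive libraries. Some splits followed single libraries. The decay-annotated transcript Polr1a-203 held 74.8% of Polr1a counts in stimulated 4 and 70.2% in naive 1, and at most 26.3% in the other libraries. The coding transcripts Polr3c-201 and Polr3c-206, which are 2390 and 2406 nt long, traded places between libraries of every group except the stimulated one, with Polr3c-201 at 22.2% to 89.7% in Torin, 70.5% to 96.0% in stimulated and 3.57% to 90.7% in naive libraries. These shares are estimates by the authors' software, and no test was made on them.

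Genes that work with the polymerases were read from 5 lists. As a background for their counts, 19.2% of all genes tested were called higher and 20.2% lower in stimulated against naive libraries. Between Torin and stimulated libraries 4.62% were called by edgeR and 12.3% by DESeq2. Between Torin and naive libraries 16.4% were called higher and 15.8% lower. In stimulated against naive libraries, 6 of 10 polymerase I factors rose and 2 fell (median log2 change 1.04). Nolc1, a nucleolar phosphoprotein, rose by 2.92 and Taf1d, a subunit of the promoter selectivity factor, by 1.69, while Ttf1, the termination factor, fell by 0.96 and Taf1b by 0.73. The call of Taf1b was lost without Torin 4, stimulated 3 or 4, or naive 2 or 3 (-0.68 to -0.58), and neither Taf1b nor Ttf1 passed without the libraries of number 4. Rrn3, the initiation factor, rose by 1.17 (SE 0.17, adjusted p 0.000301 by edgeR) and Ubtf, which binds ribosomal DNA, by 1.01 (SE 0.23, adjusted p 0.00502 by edgeR). With totals alone Ubtf stood at 0.48 (adjusted p 0.0946 by edgeR). None of the 10 passed by edgeR between Torin and stimulated libraries (1 at an unadjusted p under 0.05, and 1 by DESeq2), and 7 were higher in Torin than in naive libraries.

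Of the 17 polymerase III factors, 2 rose and 5 fell in stimulated against naive libraries (median log2 change -0.23, near the -0.22 of all genes). Over all genes tested, 39.5% were called in that comparison and 4.62% between Torin and stimulated libraries. Maf1, the repressor of polymerase III, stood at 57.0, 37.8, 44.1 and 31.3 CPM in stimulated and 256, 158, 182 and 158 CPM in naive libraries, a log2 change of -2.14 (SE 0.22, adjusted p 2.78e-05 by edgeR). Brf1, a subunit of the initiation factor that recruits the enzyme to transfer RNA genes, fell by 1.54 (SE 0.19, adjusted p 9.35e-05 by edgeR). Ssb, which binds the ends of new polymerase III transcripts, rose by 0.90 and Gtf3c6, a subunit of a promoter-binding factor, by 0.68, and both calls were lost with totals alone (0.40 and 0.16). In Torin libraries Maf1 stood at 104, 109 and 106 CPM, between the other groups and overlapping neither. It was the only one of the 17 that passed between Torin and stimulated libraries, at 1.32 (SE 0.22, adjusted p 0.0121 by edgeR), and it did not pass without Torin 3 (1.3, adjusted p 0.0621 by edgeR) or without the libraries of number 4 (1.22, adjusted p 0.0865 by edgeR). Brf1, at 9.85, 9.86 and 7.50 CPM in Torin and 5.35, 5.05, 6.70 and 4.06 CPM in stimulated libraries, had a log2 change of 0.78 (adjusted p 0.0534 by edgeR), again without overlap. Against naive libraries, 5 of the 17 were higher in Torin libraries and 3 lower, Maf1 by 0.82 and Brf1 by 0.76 on the log2 scale. Over all genes tested, 16.4% were higher and 15.8% lower. Only Ssb and Gtf3c6 passed without the libraries of number 4, both higher, and 2 were higher and 2 lower without those of number 2 (edgeR). These 2 fits called 23.6% and 29.2% of all genes tested.

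**Figure D5:**
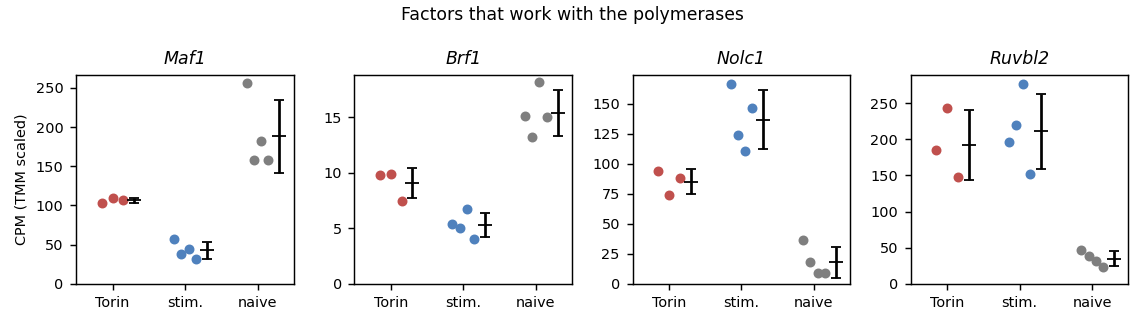
TMM-scaled CPM of Maf1, Brf1, Nolc1 and Ruvbl2 in each Torin, stimulated (stim.) and naive library. Points are libraries and bars give the group mean with its SD. Maf1 lies at 104 to 109 CPM in Torin, 31.3 to 57.0 CPM in stimulated and 158 to 256 CPM in naive libraries.

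Of the 31 general factors of polymerase II, 15 rose and 1 fell in stimulated against naive libraries (median log2 change 0.54). Over all genes tested, 19.2% rose and 20.2% fell. Gtf2h5 and Gtf2f1, subunits of initiation factors, rose by 1.82 and 1.65, and Taf8 fell by 0.87, a call lost without stimulated 2, 3 or 4 or naive 1 (-0.83 to -0.69), or without the libraries of number 2 or 4. Tbp, the TATA-binding protein used by all these enzymes, had a log2 change of -0.15 (adjusted p 0.424 by edgeR), and with totals alone of -0.63 (adjusted p 0.0192 by edgeR). Of the 15 genes for assembly and import of polymerases, 8 rose and none fell (median log2 change 1.0), led by the paired ATPases Ruvbl2 at 2.60 and Ruvbl1 at 2.53. Of 24 genes for elongation and the C-terminal tail of Polr2a, 3 rose and 7 fell (median log2 change -0.00). Over all genes tested, 39.5% were called in either direction. Nelfe, a subunit of the pausing factor NELF, and Larp7, which binds 7SK RNA, stood at 1.20 each. Hexim1, an inhibitor of the elongation kinase, stood at -1.19 and Cdk13, a kinase of the C-terminal tail, at -1.18. Of the 24, 2 were called higher and 4 lower without the libraries of number 4, and 2 and 5 without those of number 2. These 2 fits called 30.9% and 34.3% of all genes tested. Between Torin and stimulated libraries, Taf9, which takes part in promoter recognition, passed at 1.06 (adjusted p 0.035 by edgeR) and Ccnh, the cyclin of the initiation factor's kinase, at -0.96 (adjusted p 0.0277 by edgeR) among the general factors. Supt4a, part of a factor that keeps the enzyme moving, passed at 1.10 (adjusted p 0.0247 by edgeR) and Ccnt2, a cyclin of the elongation kinase, at 0.83 (adjusted p 0.0283 by edgeR) among the elongation genes, and none passed by edgeR among the assembly genes (3 at an unadjusted p under 0.05, and 2 by DESeq2). Over all genes tested, 4.62% passed by edgeR and 12.3% by DESeq2 between these groups. The calls of Taf9, Ccnh, Supt4a and Ccnt2 were each lost in several fits without 1 library, with their sign kept. Taf9 was lost without any 1 of the Torin or stimulated libraries (0.93 to 1.16), and Ccnh without Torin 1 or 3 or stimulated 2 or 4 (-0.98 to -0.75). Supt4a was lost without any 1 of the Torin libraries or stimulated 2 or 4 (0.99 to 1.14), and Ccnt2 without any 1 of the Torin libraries or stimulated 1, 2 or 4 (0.76 to 0.87). Against naive libraries, 9 of 31 general factors, 9 of 15 assembly genes and 3 of 24 elongation genes were higher in Torin libraries, and none was lower. Over all genes tested, 16.4% were higher and 15.8% lower. Polrmt, the polymerase of mitochondria, and Polr2m, which copurifies with polymerase II, did not pass in any comparison (log2 changes of 0.17 and 0.26 in stimulated against naive libraries).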

How the data were processed

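The deposited tables give estimated counts per gene and per transcript for 11 libraries, as made by the authors. The submitters' processing notes name mm39 as the build, and list STAR (2.7.1a), SAMtools (1.9), StringTie (2.1.0), DESeq2 (1.30.1) and R (4.0.5) without saying what each was used for. A SMARTer ultra-low poly(A) kit was used, per the labels. All values were whole numbers, so none was rounded. Whether counting used strand, and how reads shared by paralogs or pseudogenes were divided, is not given in the sources used here. Totals are larger than read numbers usually are, which the labels leave unexplained, so no counting intervals were computed and precision rests on the spread between libraries. No columns were left unused (0).

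Genes were named by identifier without version from GENCODE M21, built on GRCm38, which matched 52081 genes (94.0%) and 138346 transcripts (97.1%). Its coordinates served only to find exon overlaps between genes, and none is printed. The test was the quasi-likelihood F test of edgeR 4.0.16 (R 4.3.3), on TMM factors, after filterByExpr with a minimum count of 10, with 1 model of group means over all 11 libraries. The common biological coefficient of variation was 0.791. The steps were tested on simulated data. Benjamini-Hochberg adjustment ran over 22238 genes, with a threshold of 0.05. Levels per length used counts of each transcript divided by its annotated length. Shares of Polr3g were compared by two-sided exact permutation of library labels, and, chosen after seeing the data, with labels exchanged within same-numbered pairs only. Promoters are from RefSeq on GRCm38.p6, with entries for 21 of 27 members.

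The subunit genes and the lists of factors were chosen with earlier results of these data known. All members enter the counts and medians, but the values of 1 of them are not reported here. From each list the 2 largest rises and falls past the threshold were named, beside Polrmt, Crcp, Polr2m, Maf1, Rrn3, Ubtf, Brf1 and Tbp. The labels give replicate numbers without saying what they mark. Deviations from group means correlated between same-numbered libraries at 0.16, 0.23, 0.15 and 0.29 (stimulated and naive) and at 0.11, 0.15 and 0.31 (Torin and stimulated), all above 0.1, and at 0.08, 0.13 and 0.28 for Torin and naive. The numbers were therefore taken to pair the first comparisons, and a fit with the number as a replicate block was run beside each. No pair of libraries within a group was a duplicate, and pairs across groups were not checked. Alternatives were the size factors and the test of DESeq2 1.42.0, scaling by totals, other filters (none, or 5 CPM on average), the block, both groups only, and libraries left out.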

Additional observations from a re-analysis of the deposited data

How the results depend on the processing

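Scaling by totals alone gave class medians in stimulated over naive of 1.85 (polymerase I), 0.14 (polymerase II), 0.21 (polymerase III) and 1.58 (shared), and in Torin over naive of 1.85, 0.07, 0.43 and 1.32. It turned the sign of Polr2c (-0.11), Polr2j (-0.10), Polr3a (-0.16) and Polr3b (-0.15) in stimulated over naive, and of Polr2a (-0.32), Polr2g (-0.00034) and Polr2i (-0.01) in Torin over naive, where 2 genes were called lower, as under the filter of 5 CPM on average. In Torin over naive, totals alone called 30.7% of all genes tested and the filter of 5 CPM 59.9%.

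In stimulated over naive, 1 gene was called lower without the libraries of number 4, where 30.9% of all genes tested were called. The polymerase I median was 2.63 without those of number 2. Leaving out each library in turn gave 19 to 21 genes called higher and 2 to 3 lower. Between 35.1% and 38% of all genes tested were called in those fits. The polymerase I median was then 2.08 to 2.69, and the Polr3g share differences were 69.5 to 74.5 points. These differences had an exact permutation p of 0.0571, the smallest that 3 against 4 can give. With the replicate block (labels exchanged within the 4 pairs, chosen after seeing the data) the difference was 72.1 points and the exact permutation p 0.125, the smallest possible.

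In Torin over stimulated, no gene (0) was called higher with DESeq2 size factors, without the filter, with both groups only, or without the libraries of number 2 or 4. Genes called lower numbered 1 without the filter, with both groups only or without number 2, 0 without number 4, 4 under the filter of 5 CPM and 6 by the DESeq2 test. Of all genes tested, 1.79%, 4.94% and 1.57% were called in the first 3 of these, 0.246% without number 4, 16.1% under the filter of 5 CPM and 12.3% by the DESeq2 test, beside 4.62% in the fit reported. Without 1 library, genes called lower numbered 0 to 4 and those called higher 0 to 1, where 0.607% to 4.85% of all genes tested were called. With DESeq2 size factors that share was 4.56%.

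Uncalled values near 0 also turned sign. In Torin over stimulated these were Polr2d (-0.01 by DESeq2 size factors and test, -0.02 under the block, -0.08 without number 2 and at lowest without 1 library), Polr2c and Polr2j (each -0.02 to 0.17 without 1 library) and Polr3d (0.06 without number 4). In Torin over naive these were Polr2a (-0.01 by DESeq2 size factors and test, -0.14 under the filter of 5 CPM, -0.02 without number 2, -0.12 to 0.24 without 1 library) and Polr3f (0.07 under the block, 0.03 without number 2, 0.04 with both groups only, 0.21 at highest without 1 library). The cause was not tested.

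With the replicate block, 21 genes were called higher and 3 lower in stimulated over naive, 1 and 2 in Torin over stimulated, and 18 and 1 in Torin over naive, where Polr2j was added (0.46) and Polr3b lost (0.52). In these comparisons the block called 41.2%, 4.34% and 33.2% of all genes tested. Beyond Polr2j, Polr3b and the calls named in the report, the block changed no other call of the 27 genes.

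Fits of single genes kept direction and call in 264 of the cases run in stimulated over naive, 252 in Torin over stimulated and 254 in Torin over naive. In the same order, a call was lost in 7, 13 and 13 cases and gained in 10, 12 and 6, and the sign turned in 4, 8 and 12. Of the fits without 1 library, only the lowest and the highest value of each gene were counted. The tally therefore leaves out most of the lost Torin over stimulated calls of Polr2a (9 of 11 such fits) and Polr2g (8 of 11).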
